A study of Homo sapiens with 24 samples.

Results

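Wild-type cells of the human embryonic stem cell line H9 were compared after 48 h of illumination, either sorted from a co-culture with cells that carry a light-responsive Wnt receptor (GFP light, 3 libraries) or grown alone (wt light, 3 libraries). These 6 of the 24 libraries of the series were chosen by their labels, and the comparison ran over 18913 genes. The study measured poly(A) RNA by sequencing in 8 groups of 3, with engineered or wild-type cells, alone or mixed, in light or in the dark. The engineered cells hold a fusion of the plant photoreceptor Cry2, whose molecules cluster in blue light, with the cytoplasmic end of LRP6, a Wnt co-receptor, followed by mCherry and a puromycin resistance gene. The wild-type cells carry eGFP and a neomycin resistance gene and no light-responsive receptor. The comparison therefore sets illuminated cells without the receptor, grown beside cells that have it, against illuminated cells grown alone. The co-cultured cells also differ by a sort, as described next.

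All cells were kept in E8 medium. Light was given at 0.8 µW/mm², and the matching dark groups are GFP dark and wt dark, which hold the same wild-type cells without light. Each biological replicate pooled the cells of 2 to 3 wells. The labels give a co-culture ratio of 1:1 and, for monocultures and co-cultures alike, Accutase for 5 min at 37 °C. Nothing in the labels says that replicates came from independent thaws or passages, so p-values measure the spread between these cultures. The co-culture cells had been sorted by fluorescence, and the labels mention no sort for the monocultures. Co-culture, the sort, and any difference in when the cultures were made cannot be told apart within GFP light against wt light. In bulk RNA, more cells of a state and more RNA per cell cannot be told apart either. The genotype tags of the monocultures name the opposite genotype from their titles, and the titles go with the construct reads given below.

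Human embryonic stem cells resemble the epiblast, the layer that forms the embryo proper. In the gastrulating epiblast, BMP signals from neighbouring tissue switch on WNT3, Wnt signals switch on NODAL, and these pathways together start the primitive streak, from which mesoderm and endoderm arise. BMP and NODAL ligands are secreted and act on nearby cells through receptors that phosphorylate SMAD proteins, whereas the engineered receptor acts inside the cell that carries it. Inhibitory SMADs, decoy receptors and ID proteins are targets of BMP signals, and several of them damp the signal that induces them.

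Reads assigned to genes numbered 31873054 to 54216955 per GFP light library and 45748680 to 54689953 per wt light library. All values below are normalised read counts, that is, reads divided by 1 scaling factor per library, and means are given with the SD over 3 libraries. The co-culture libraries carry no replicate number and are called a, b and c. Construct reads went with the titles: eGFP read 11980.1 to 14466 in GFP light and 12607 to 13318 in wt light, and 0 to 29.8 in the 12 engineered libraries. The puromycin gene had 6 reads over the 3 GFP light libraries and 0 in wt light, and its mean in GFP light was 0.0511% of that in the mCherry-positive cells of the same co-cultures (mCherry light). The summed level of 8 pluripotency markers was 336600 to 362100 in GFP light and 341400 to 350400 in wt light, so both groups read as pluripotent cells by these markers. The sum of 12 streak and mesoderm markers was 761.6 to 864.7 in GFP light and 223.7 to 235.8 in wt light, against 299400 to 346800 in mCherry light. Most of the rise lay in EOMES (mean 243.8 in GFP light against 5.90 in wt light), TBXT (118.7 against 8.52), MIXL1 (156.6 against 46.6) and APLNR (76.2 against 24.2). TBX6 (146.5 against 118.7) and PDGFRA (22.5 against 20.0) differed little. The means of MSGN1, MESP1, EVX1, HAND1, CDX1 and CDX2 were under 10 in both groups. Replicate 2 stood apart within wt light: the chi-square of its read counts per degree of freedom was 51.65 against replicate 1 and 42.58 against replicate 3, while those replicates gave 5.40 against each other. GFP light a differed from b and c by 19.26 and 24.71 on the same measure, and b from c by 6.99.

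In GFP light, 1648 genes were higher than in wt light (8.71% of those tested) and 1396 were lower (7.38%; limma, Benjamini-Hochberg adjusted p under 0.05). Most changes were small: the median absolute log2 change of the called genes was 0.48, and 243 of the higher and 226 of the lower genes changed at least 2-fold. The groups did not overlap for 5780 genes (30.6%). In the dark, where the same cells were sorted from a dark co-culture or grown alone, 3 genes were higher in GFP dark (0.0159%) and 1 was lower (0.00529%), while 1588 genes had an unadjusted p under 0.05. edgeR called 4 higher and 3 lower in the dark and DESeq2 33 and 19. The difference between the light and dark comparisons was itself tested, and it was positive for 252 genes (1.33%) and negative for 226 (1.19%). Leaving out GFP light b lowered the counts to 1039 higher and 784 lower genes, and leaving out wt light 2 left 930 lower genes. The counts of genes whose light and dark differences differed became 153 positive and 138 negative without GFP dark b, 156 positive without GFP dark c, 155 positive without wt dark 2 and 149 negative without wt dark 3. Leaving out 1 library gave 1 to 14 higher and 0 to 8 lower genes in the dark, with the highest counts without wt light 2, which shares in the estimate of the spread.

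**Figure D1:**
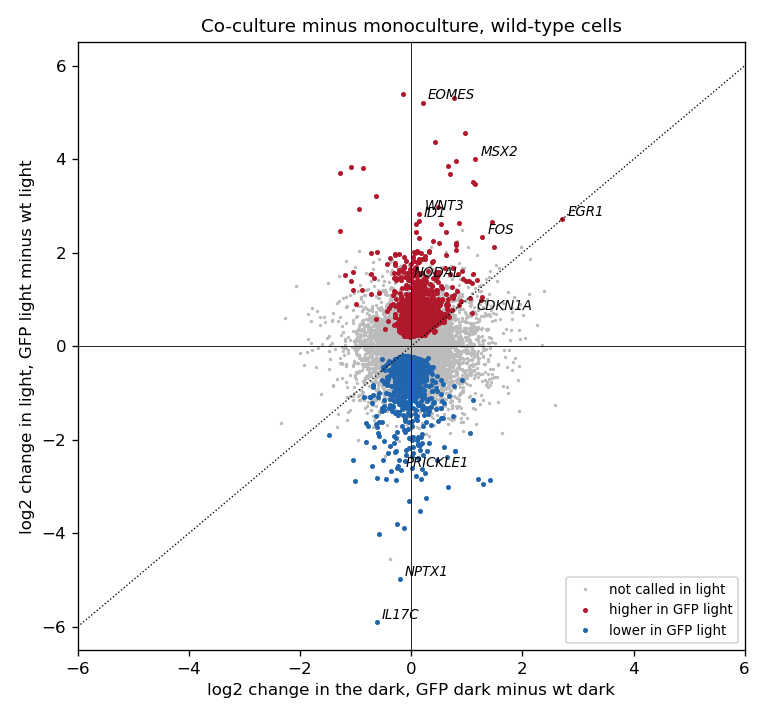
Each point is 1 of 18913 genes, with the log2 change of GFP dark over wt dark on the horizontal axis and that of GFP light over wt light on the vertical axis; the dotted line marks equal change, and red and blue points are the 1648 higher and 1396 lower genes in light. EGR1 lies on the line, with log2 changes of 2.72 in both comparisons, whereas EOMES, ID1, WNT3 and NPTX1 lie close to the vertical axis.

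Several targets of BMP signalling rose in wild-type cells that shared a culture with illuminated engineered cells. Of its 15 genes, all tested, 8 were higher in GFP light and 1 was lower, and the median log2 change was 1.47, against 0.0036 over all genes tested. In the dark none was called and the median was 0.16; the light and dark differences differed upward for 7 genes and downward for 1. MSX1, MSX2, NOG and GREM1 passed the filter on low values only through their GFP light level. Of these MSX2 was called, and all of them enter the median.

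ID1 encodes an inhibitor of basic helix-loop-helix transcription factors and is a direct target of BMP receptors. It read 11387, 12580.0 and 14523 in GFP light, against 1833, 2367 and 1793 in wt light. The groups were far apart, and the log2 change was 2.69 ± 0.11 (SE; limma, adjusted p = 3.8e-11). In the dark ID1 averaged 1563 ± 191 in GFP dark and 1414 ± 88.5 in wt dark (SD, n = 3 each), a log2 change of 0.14 ± 0.11 (adjusted p = 0.783), and the light and dark differences themselves differed by 2.55 ± 0.16 (adjusted p = 2.94e-08). The gene lies at chr20:31605283-31606515 (GRCh38).

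The other 3 ID genes followed the same order. ID2 read 2086, 1605 and 2150.3 in GFP light, against 473, 590.2 and 459 in wt light, with a log2 change of 1.94 ± 0.14 (SE; limma, adjusted p = 1.82e-08). ID3 averaged 19791 ± 1978 in GFP light and 7046 ± 524 in wt light (SD, n = 3 each), and ID4 averaged 691 ± 44.3 in GFP light and 114 ± 27.4 in wt light. Their log2 changes were 1.49, adjusted p = 4.8e-10 for ID3 and 2.61, adjusted p = 6.52e-08 for ID4. In none of the 4 genes did the 2 groups overlap, which held for 30.6% of all genes tested. In each of the 4 the difference exceeded that in the dark.

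MSX2, a homeobox gene of BMP-responsive tissue, read 195, 176 and 162 in GFP light, against 18.4, 8.57 and 6.39 in wt light. The level in GFP light was 16.0 times that in wt light, with a log2 change of 4.004 ± 0.53 (SE; limma, adjusted p = 5.11e-05). SMAD6 and BAMBI, named here after their values were seen, encode an inhibitory SMAD and a decoy receptor that limit BMP and TGF-beta signals. SMAD6 averaged 701 ± 20.1 in GFP light and 253 ± 14.8 in wt light, a log2 change of 1.47 ± 0.16 (SE; limma, adjusted p = 7.51e-06). BAMBI averaged 2426 ± 206 in GFP light and 671 ± 57.5 in wt light, a log2 change of 1.85 ± 0.11 (SE; limma, adjusted p = 3.03e-09). Neither gene's groups overlapped, which held for 30.6% of all genes tested.

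The windows of 250 bases before the transcription start of SMAD6 and BAMBI are printed because both genes limit the BMP signal and rose together. The sequences are from RefSeq (GRCh38.p14), and capitals mark GTCTAGAC, a palindrome known as a SMAD-binding sequence, in SMAD6 (chr15:66701986-66702235, plus strand) and GGCGCC, a GC-rich palindrome of BMP-responsive elements, in BAMBI (chr10:28677271-28677520, plus strand). The motifs were chosen after the values and sequences were seen. GTCTAGAC occurred 1 time in the SMAD6 window and in 0.182% of 35116 promoter windows of the same length, and GGCGCC occurred 3 times in the BAMBI window and in 16.4% of the windows.
SMAD6: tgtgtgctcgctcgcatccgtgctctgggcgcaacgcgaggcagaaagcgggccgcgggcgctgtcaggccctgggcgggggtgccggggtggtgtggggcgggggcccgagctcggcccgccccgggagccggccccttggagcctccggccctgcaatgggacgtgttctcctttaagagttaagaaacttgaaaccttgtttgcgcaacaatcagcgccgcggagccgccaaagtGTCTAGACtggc
BAMBI: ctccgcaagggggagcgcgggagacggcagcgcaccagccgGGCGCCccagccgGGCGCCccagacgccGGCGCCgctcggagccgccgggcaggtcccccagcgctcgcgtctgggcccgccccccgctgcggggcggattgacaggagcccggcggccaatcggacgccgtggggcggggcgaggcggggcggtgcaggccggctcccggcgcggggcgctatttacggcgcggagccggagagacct

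The ligands of the list went different ways. BMP4, also named after its values were seen, read 246, 254 and 326 in GFP light, against 126, 118 and 101.5 in wt light, a log2 change of 1.24 ± 0.19 (SE; limma, adjusted p = 0.000254); its mean in mCherry light was 17419, and its light and dark differences differed by 0.69 ± 0.27 (adjusted p = 0.228). BMP2 fell, with 44.4, 57.5 and 40.4 in GFP light, against 75.03, 102 and 102 in wt light and a log2 change of -0.96 ± 0.23 (SE; limma, adjusted p = 0.00848). BMP7 and the antagonists CHRD and NOG did not pass the threshold in either direction.

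**Figure D2:**
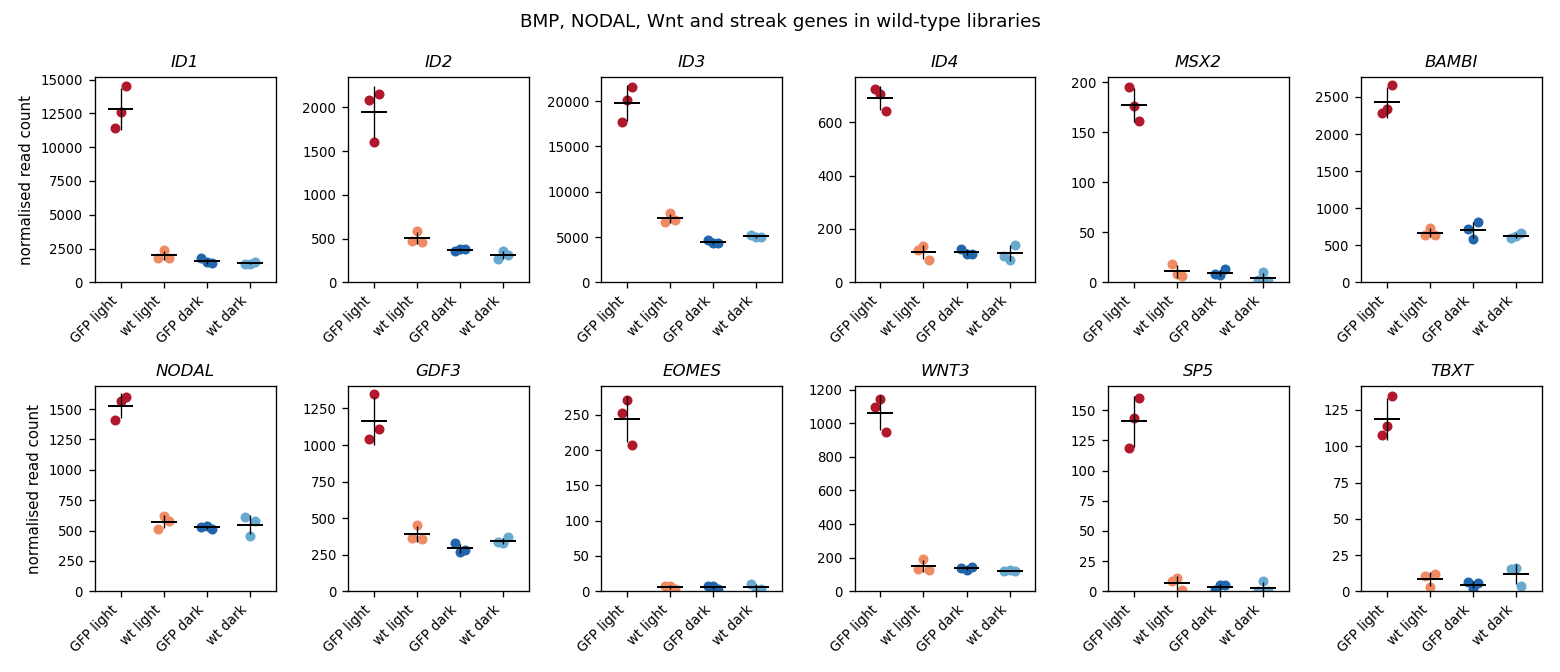
Normalised read counts of 12 genes in the 12 wild-type libraries, with GFP light, wt light, GFP dark and wt dark from left to right in each panel; points are libraries, the bar is the mean and the line is the SD (n = 3). In every panel the 3 GFP light libraries lie above the other 9.

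Genes of the NODAL and TGF-beta pathway rose as well. Of 15 listed genes 12 were tested, 9 were higher in GFP light and 1 was lower, with a median log2 change of 1.02, against -0.01 in the dark. NODAL, the ligand that patterns the streak, read 1412, 1571 and 1602 in GFP light, against 516, 623 and 578 in wt light. Its groups were far apart and the log2 change was 1.42 ± 0.11 (SE; limma, adjusted p = 1.29e-07). The dark difference was -0.05 ± 0.11 (adjusted p = 0.944). GDF3, a related ligand that works with NODAL, averaged 1164 ± 163 in GFP light and 392 ± 54.6 in wt light, a log2 change of 1.57 ± 0.13 (SE; limma, adjusted p = 1.88e-07). SMAD7, which blocks TGF-beta receptors, averaged 2657 ± 212 in GFP light and 1206 ± 30.3 in wt light, a log2 change of 1.14 ± 0.10 (SE; limma, adjusted p = 1.87e-07).

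The NODAL inhibitor LEFTY2 overlapped between groups and averaged 701 ± 19.1 in GFP light and 671 ± 113 in wt light, a log2 change of 0.08 ± 0.11 (SE; limma, adjusted p = 0.694). TDGF1, the NODAL co-receptor, was the member that fell, with 15052 ± 1157 in GFP light and 20222 ± 1563 in wt light and a log2 change of -0.43 ± 0.08 (SE; limma, adjusted p = 0.00132).

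Of 14 genes of the primitive streak and mesendoderm list, 10 passed the filter on low values and 8 were higher in GFP light, with none lower. The median log2 change of the 10 was 2.11, against 0.06 in the dark. EOMES and SP5 passed only through their GFP light level, so high values in GFP light were a condition of their test. Both are among the 8 and enter the median. GSC, EVX1, GATA6 and MESP1 stayed under the filter. EOMES, a T-box factor of the early streak, read 253, 271 and 207 in GFP light, against 6.89, 7.61 and 3.20 in wt light, at chr3:27715949-27722711 (GRCh38). The log2 change was 5.21 ± 0.49 (SE; limma, adjusted p = 9.73e-07). TBXT, the T-box factor brachyury, read 108, 114 and 135 in GFP light, against 10.7, 2.86 and 11.99 in wt light, a log2 change of 3.83 ± 0.58 (SE; limma, adjusted p = 0.000223).

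WNT3, the Wnt ligand that starts the streak in mouse embryos, read 1098, 1146 and 947 in GFP light, against 131, 195 and 126 in wt light. The groups were clearly apart, with a log2 change of 2.83 ± 0.16 (SE; limma, adjusted p = 1.19e-09); the dark difference was 0.15 ± 0.16 (adjusted p = 0.858) and the 2 differences themselves differed by 2.69 ± 0.23 (adjusted p = 7.83e-07). WNT3 was the 1 gene called among the 8 tested genes of Wnt ligands and their secretion. MIXL1, a homeobox factor of mesendoderm, read 156, 143 and 171 in GFP light, against 59.0, 45.7 and 35.2 in wt light, and CER1, a secreted inhibitor of BMP, NODAL and Wnt, averaged 165 ± 32.3 in GFP light and 43.2 ± 4.87 in wt light. Their log2 changes were 1.75, adjusted p = 5.01e-05 for MIXL1 and 1.89, adjusted p = 5.47e-05 for CER1. FGF8, a ligand that streak cells need to migrate in the mouse, averaged 104 ± 8.45 in GFP light and 20.2 ± 3.92 in wt light, a log2 change of 2.32 ± 0.48 (SE; limma, adjusted p = 0.00339); the light and dark differences differed by 2.17 ± 0.68 (adjusted p = 0.113).

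The Wnt feedback and target list was divided. Of 18 genes 16 were tested, 7 were higher and 2 were lower in GFP light, with a median log2 change of 0.22. SP5, a transcription factor that answers directly to beta-catenin, read 119, 143 and 160.3 in GFP light, against 8.42, 11.4 and 0.799 in wt light, a log2 change of 4.56 ± 0.85 (SE; limma, adjusted p = 0.00156). In the dark its change was 0.97 ± 0.85 (adjusted p = 0.81), and the light and dark differences differed by 3.598 ± 1.21 (adjusted p = 0.15). NOTUM and RNF43, which remove the lipid of Wnt ligands and the Wnt receptors from the cell surface, rose by log2 changes of 1.67, adjusted p = 0.00497, and 1.10, adjusted p = 0.00154, in that order; their light and dark differences differed by 1.60 ± 0.51 (adjusted p = 0.126) and 1.01 ± 0.29 (adjusted p = 0.08). The difference from the dark thus missed the threshold for SP5, NOTUM and RNF43. In the list it was positive for 1 gene and negative for 1. These were CCND1 (adjusted p = 0.000129, limma), named after its values were seen, and MYC (adjusted p = 0.0132). CCND1 rose in light by a log2 change of 0.69 (limma, adjusted p = 6.49e-07). AXIN2, a widely used Wnt reporter gene, overlapped between groups and averaged 538 ± 65.2 in GFP light and 519 ± 33.5 in wt light, a log2 change of 0.05 ± 0.11 (SE; limma, adjusted p = 0.817). LEF1 averaged 32.6 ± 5.81 in GFP light and 29.6 ± 4.30 in wt light, a log2 change of 0.13 ± 0.33 (SE; limma, adjusted p = 0.828). In mCherry light the means of AXIN2 and LEF1 were 6045 and 13837. The falls of MYC (-0.25, adjusted p = 0.0473) and TCF7L1 (-0.27, adjusted p = 0.0368) were small, and neither was called without GFP light b or without wt light 2. SFRP1, a secreted Wnt antagonist, fell, with 13421, 13668 and 13627 in GFP light, against 28564, 23922 and 27570.2 in wt light, a log2 change of -0.97 ± 0.07 (SE; limma, adjusted p = 2.56e-08).

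The SP5 window is printed because SP5 rose most among Wnt targets while AXIN2 did not pass the threshold. The 250 bases before its start (chr2:170715087-170715336, plus strand, RefSeq, GRCh38.p14) are given with CTTTGA and its reverse complement TCAAAG in capitals, the core sequence of TCF/LEF factors. It occurred 3 times there and in 11.2% of the 35116 promoter windows. This motif too was chosen after the sequence was seen.
SP5: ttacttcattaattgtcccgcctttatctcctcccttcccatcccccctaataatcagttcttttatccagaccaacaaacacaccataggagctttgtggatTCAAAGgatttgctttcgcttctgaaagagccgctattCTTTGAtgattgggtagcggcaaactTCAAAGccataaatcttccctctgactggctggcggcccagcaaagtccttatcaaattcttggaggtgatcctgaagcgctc

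Many streak genes were far higher in the illuminated engineered cells, so the levels in GFP light were set beside those in mCherry light. In all, 108 genes were at least 100 times higher in mCherry light than in wt light, with a mean of at least 500 in mCherry light. The excess in GFP light over wt light was a median of 0.0504% of the mCherry light level, with quartiles of 0% and 0.223%, and the puromycin gene stood at 0.0511%. Other construct features gave higher shares: the excess of the Cry2 fusion in GFP light over wt light was 0.218% of its mCherry light level, and eGFP in mCherry light was 0.176% of its GFP light level. The fusion feature had 219 to 310.1 in wt light and 325 to 426.5 in wt dark, cells without the fusion, so its excess is an uncertain gauge. Genes above 1% included MSX2 (14.2%), SEZ6L (12.8%), EOMES (4.11%), HAGLR (1.70%), FZD10 (1.27%) and TNFRSF11B (1.07%). Of the 108 genes 43 were tested and 14 were called higher. For TBXT the excess was 0.397%, and for MIXL1 0.164%.

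The mCherry light level was then subtracted in 3 ways, scaled by each library's own puromycin share, by the mean puromycin share, or by the mean excess share of the fusion; the ways with a mean share were added after the data were seen. The puromycin share rests on 4 reads in GFP light a, 2 in b and 0 in c, so the first way subtracted nothing from c. EOMES had log2 changes of 5.19, 5.19 and 5.13 in that order, TBXT 3.63, 3.65 and 2.80, and SP5 4.48, 4.49 and 4.21, all with adjusted p of 0.00487 or less (limma). MIXL1 depended on the gauge: its log2 change was 1.35 (adjusted p = 0.0023), 1.40 (adjusted p = 0.000647) and -2.84 (adjusted p = 0.0129). APLNR, a receptor gene of early mesoderm, averaged 76.2 ± 28.6 in GFP light and 24.2 ± 7.32 in wt light, against 165181 in mCherry light. Its log2 change of 1.60 ± 0.50 (SE; limma, adjusted p = 0.0379) turned negative in each way, to -1.42 (adjusted p = 0.338), -3.05 (adjusted p = 0.0323) and -4.61 (adjusted p = 5.4e-05), where values below 0 had been set to 0. APLNR was also not called without any 1 of GFP light a, b or c or of wt light 1 or 3; the value without GFP light b was 1.31 (adjusted p = 0.152).

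**Figure D3:**
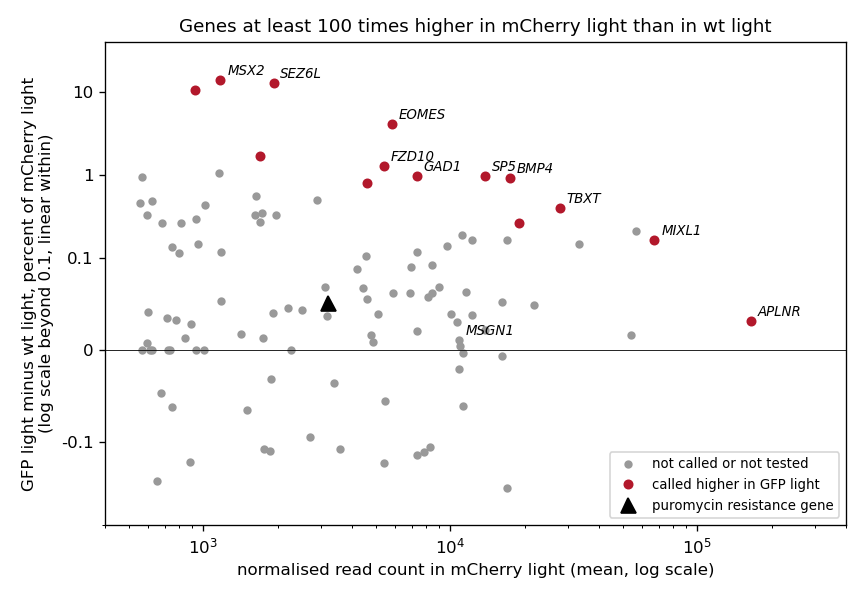
Each point is 1 of 108 genes at least 100 times higher in mCherry light than in wt light; the horizontal axis gives the mean level in mCherry light and the vertical axis the excess of GFP light over wt light as a percent of it. The median of the points is 0.0504%, and the triangle of the puromycin gene is at 0.0511%, while MSX2 and SEZ6L are among the points above 10%.

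Feedback genes of other pathways changed in part. In the FGF/ERK list 6 of 16 tested genes were higher (37.5%) and 1 was lower (6.25%), against 8.71% and 7.38% over all genes tested. SPRY1 and SPRY2, inhibitors of receptor tyrosine kinase signals, averaged 1892 ± 94.6 in GFP light and 944 ± 58.0 in wt light for SPRY1 and 2814 ± 16.6 in GFP light and 1561 ± 126 in wt light for SPRY2. FGF4, an autocrine ligand of pluripotent cells, rose to 130.0 in GFP light, against 42.2 in wt light. DUSP6, a phosphatase induced by ERK, read 18300.2, 18007 and 17205 in GFP light, against 16377, 14597 and 16096 in wt light, without overlap but with a log2 change of 0.19 ± 0.07 (SE; limma, adjusted p = 0.0698) that missed the threshold.

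In the Notch list 6 of 14 genes were higher (42.9%) and 3 were lower (21.4%), against 8.71% and 7.38% over all genes tested. HES1 and HEY1, transcriptional repressors induced by Notch and in many cells by BMP, read 773, 879.7 and 1036 in GFP light, against 297, 432 and 328 in wt light for HES1 and 317, 296 and 243 in GFP light, against 74.3, 72.3 and 77.5 in wt light for HEY1. The log2 changes were 1.35 ± 0.19 (SE; limma, adjusted p = 8.04e-05) and 1.91 ± 0.21 (SE; limma, adjusted p = 5.65e-06). The ligands DLL1 and DLL3 fell, to 111 and 244 in GFP light, against 232 and 659 in wt light. The ligand JAG1 rose, with 2205 ± 95.7 in GFP light and 1220.1 ± 246 in wt light.

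EFNB2, a membrane-bound ligand of Eph receptors at tissue borders, read 1539.8, 1464 and 1502 in GFP light, against 679, 551 and 632 in wt light, a log2 change of 1.28 ± 0.10 (SE; limma, adjusted p = 4.53e-08). It was 1 of 3 higher genes among the 16 of the Eph and ephrin list (18.8%, against 8.71% over all genes tested). In the retinoic acid list CYP26A1, which degrades retinoic acid, rose (1.14, adjusted p = 0.000896) and DHRS3, which reduces retinaldehyde, fell (-1.48, adjusted p = 9.24e-07), while the other 9 tested genes were not called. Shares near those of all genes tested were thus called in the retinoic acid list, 9.09% each way. Of 14 YAP and TEAD targets 5 were higher (35.7%) and 1 was lower (7.14%, against 7.38% over all genes tested). The count of higher YAP and TEAD targets was 3 without wt light 2 and 1 with the 6 illuminated libraries alone.

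Of 16 core pluripotency genes 4 were higher and 2 were lower in GFP light. POU5F1, a central factor of the network, averaged 107033 ± 8820.3 in GFP light and 107550.0 ± 7609 in wt light, a log2 change of -0.01 ± 0.08 (SE; limma, adjusted p = 0.962). NANOG, which answers to NODAL and Activin signals in human cells, read 5989, 6361 and 6229 in GFP light, against 4261, 4598 and 4097 in wt light, a log2 change of 0.52 ± 0.07 (SE; limma, adjusted p = 8.71e-05). PRDM14, a repressor of differentiation genes, averaged 2404 ± 231 in GFP light and 1593 ± 167 in wt light, a log2 change of 0.59 ± 0.09 (SE; limma, adjusted p = 0.000265). SOX2 fell slightly, with 7437 ± 1.31 in GFP light and 8702 ± 276 in wt light and a log2 change of -0.23 ± 0.07 (SE; limma, adjusted p = 0.0252). None of the 6 called genes of the list changed by 2-fold.

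Genes that mark other fates split. Of the 13 amnion and surface ectoderm genes 8 were tested, of which 4 were higher and 3 were lower in GFP light. Transcription factor genes were among the higher ones: GATA3 read 77.4, 66.9 and 43.1 in GFP light, against 3.83, 9.52 and 2.40 in wt light, GATA2 averaged 71.3 ± 8.87 in GFP light and 16.6 ± 3.23 in wt light, and TFAP2A had 16.5, 20.7 and 16.2 in GFP light, against 0, 1.90 and 0 in wt light. GATA3 and TFAP2A passed the filter only through GFP light, and TFAP2A did not pass it when any 1 of the 3 GFP light libraries was left out. For GATA2 and GATA3 the light and dark differences differed by 1.24 ± 0.70 (adjusted p = 0.446) and 2.33 ± 0.81 (adjusted p = 0.172), short of the threshold. Of the lower ones GABRP, a GABA receptor subunit, read 92.5, 93.2 and 67.4 in GFP light, against 558, 459.8 and 527 in wt light, a log2 change of -2.61 ± 0.15 (SE; limma, adjusted p = 1.19e-09), the keratin gene KRT7 averaged 276 ± 35.1 in GFP light and 553 ± 47.9 in wt light, and IGFBP3, a secreted binding protein of insulin-like growth factors, averaged 86.5 ± 19.5 in GFP light and 145 ± 29.4 in wt light (log2 change -0.74, adjusted p = 0.0284). The summed level of the 4 amnion markers GABRP, VTCN1, ISL1 and GATA3 was 125.3 to 177.4 in GFP light and 473.1 to 565 in wt light. GABRP made up most of that sum (mean 84.4 in GFP light and 514.9 in wt light) and was the only marker that fell. The means of GATA3 (62.5 against 5.25), ISL1 (7.60 against 1.41) and VTCN1 (4.56 against 2.74) were higher in GFP light. ISL1 and VTCN1 stayed under the filter on low values.

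FOXA2, a factor of endoderm and floor plate, fell to 15.0, 15.1 and 5.39 in GFP light, against 43.6, 122 and 45.6 in wt light, a log2 change of -2.43 ± 0.47 (SE; limma, adjusted p = 0.00195), and its highest wt light value was that of wt light 2. The dark change of FOXA2 was -1.05 ± 0.47 (adjusted p = 0.563), and the light and dark differences differed by -1.38 ± 0.66 (adjusted p = 0.352). HHEX, a homeobox gene of anterior endoderm, rose to 33.7 in GFP light, against 5.58 in wt light, but passed the filter only through GFP light and did not pass it when any 1 of the 3 GFP light libraries was left out. POU3F1, a factor of early neural tissue, fell, with 487 ± 54.0 in GFP light and 877 ± 14.8 in wt light and a log2 change of -0.85 ± 0.11 (SE; limma, adjusted p = 4.26e-05). The summed endoderm markers were 49.9 to 83.8 in GFP light and 79.1 to 144.7 in wt light, and the summed neural markers 21.7 to 24.8 in GFP light and 11.2 to 16.1 in wt light. The endoderm sum fell through FOXA2, while the means of CXCR4 (53.4 in GFP light against 33.5 in wt light) and GATA4 (5.37 against 2.415) were higher. SOX17 was at or near 0 in both groups. The neural sum rose through LHX2 (17.9 against 5.18). PAX6 (2.45 against 3.895), SOX1 (2.36 against 2.76) and SIX3 (0.449 against 2.335) were lower in GFP light and near 0.

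The 12 largest rises held further genes outside these lists. SAMD11, which encodes a sterile alpha motif protein, read 217, 170.5 and 166 in GFP light, against 1.53, 3.81 and 7.19 in wt light, a log2 change of 5.31 ± 0.52 (SE; limma, adjusted p = 1.53e-06). The noncoding gene LINC02593 lies beside it (chr1:916865-921016, against chr1:923928-944581 for SAMD11, GRCh38) and read 73.7, 63.1 and 39.1 in GFP light, against 1.53, 0 and 0 in wt light; it had only 2 reads in wt light, so a fitted fold of it depends on the pseudocount. CDH6, a cadherin, read 444, 401 and 352 in GFP light, against 38.3, 15.2 and 24.8 in wt light, a log2 change of 3.97 ± 0.33 (SE; limma, adjusted p = 1.95e-07). In mCherry light, the engineered cells of the same cultures, the mean of CDH6 was 8.22. Whether reads were counted by strand is unknown here, so values of overlapping or antisense genes are uncertain.

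SEZ6L, a membrane protein of neurons, averaged 266 ± 36.9 in GFP light and 18.7 ± 7.40 in wt light, and PCAT14, a noncoding gene, 242 ± 92.2 in GFP light and 14.9 ± 1.72 in wt light. GAD1, the enzyme that makes GABA, averaged 82.0 ± 19.6 in GFP light and 10.03 ± 5.27 in wt light. For these genes, named as members of the largest rises, groups without overlap were a condition of the choice. Their log2 changes were 3.82, 3.86 and 2.99, in that order.

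Among the 12 largest falls, NPTX1, a secreted neuronal pentraxin, read 33.8, 38.6 and 14.8 in GFP light, against 1022, 1014 and 663 in wt light. The level in wt light was 30.9 times that in GFP light, and the log2 change was -4.98 ± 0.25 (SE; limma, adjusted p = 3.39e-10). In the dark NPTX1 read 1079.7, 1204 and 1128 in GFP dark, against 1047, 1640.5 and 1310.2 in wt dark, with overlapping groups. IL17C, an epithelial cytokine, read 1.504, 1.88 and 0 in GFP light, against 113, 144 and 91.9 in wt light, a log2 change of -5.90 ± 0.36 (SE; limma, adjusted p = 2.37e-09). CUZD1, a secreted or membrane-bound protein of secretory epithelia, read 75.9, 83.8 and 32.3 in GFP light, against 851, 1032 and 793 in wt light, a log2 change of -3.88 ± 0.24 (SE; limma, adjusted p = 3.76e-09). In both dark groups the means of IL17C (65.3 in GFP dark and 100.7 in wt dark) and CUZD1 (733 in GFP dark and 799 in wt dark) lay far above those in GFP light.

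PRICKLE1, a planar cell polarity protein, read 241, 243 and 294 in GFP light, against 1742, 1394 and 1750.2 in wt light, a log2 change of -2.65 ± 0.11 (SE; limma, adjusted p = 2.92e-11). FOXJ1, the regulator of motile cilia, read 80.4, 55.6 and 66.0 in GFP light, against 397, 483 and 520.3 in wt light, a log2 change of -2.78 ± 0.15 (SE; limma, adjusted p = 5.11e-10). For the 12 largest falls too, groups without overlap were a condition of the choice. The remaining falls of the 12 were BRINP2, ATP10B, BNC1, ISLR2, GJC3 and CLC, with means of 3.89 to 20.9 in GFP light and 53.2 to 112.3 in wt light, beside GABRP above. The change in light differed from that in the dark for each of the 12, with adjusted p of 0.0444 or less.

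**Figure D4:**
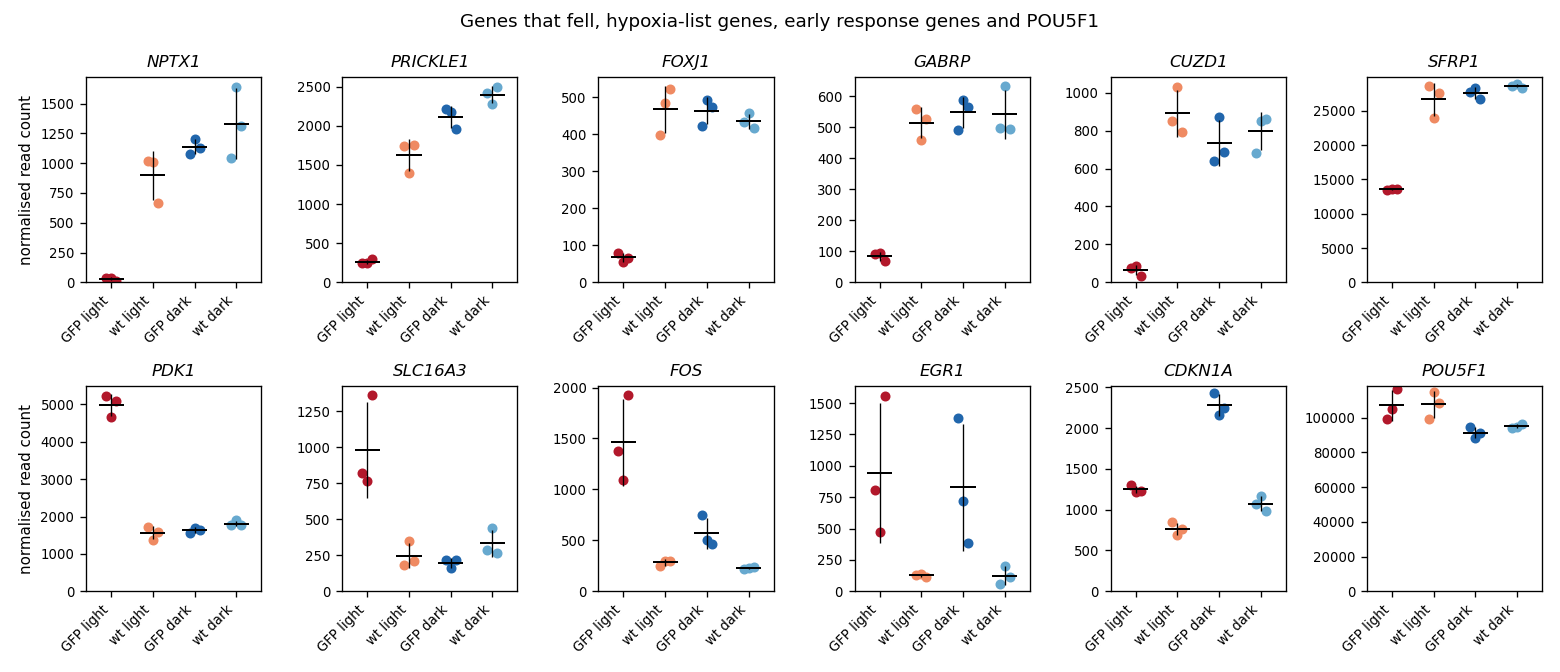
Normalised read counts of 12 further genes in the 12 wild-type libraries, drawn as in the plot of BMP, NODAL, Wnt and streak genes. NPTX1, PRICKLE1, FOXJ1, GABRP, CUZD1 and SFRP1 are low in the 3 GFP light libraries alone, PDK1 and SLC16A3 are high there alone, EGR1 and CDKN1A are also higher in GFP dark than in wt dark, and POU5F1 overlaps between GFP light and wt light.

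Several genes induced by low oxygen rose in GFP light, and none was called in GFP dark. Of 18 listed genes 10 were higher and none was lower, with a median log2 change of 0.50, against -0.04 in the dark, and the light and dark differences differed for 7. PDK1, which diverts pyruvate from mitochondria, read 5235, 4667 and 5085 in GFP light, against 1723, 1384 and 1593 in wt light, a log2 change of 1.68 ± 0.09 (SE; limma, adjusted p = 4.22e-10). PFKFB4, which sets the glycolytic rate, averaged 1740.5 ± 148 in GFP light and 731 ± 74.6 in wt light, a log2 change of 1.25 ± 0.11 (SE; limma, adjusted p = 2e-07). EGLN3, an oxygen-sensing hydroxylase, averaged 1483 ± 56.4 in GFP light and 827 ± 98.2 in wt light. CA9, a marker of strong hypoxia, did not pass the threshold.

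Among 19 glycolysis genes 5 were higher and 1 was lower. SLC16A3, the lactate exporter, read 820.3, 762 and 1362 in GFP light, against 181, 346 and 213 in wt light, a log2 change of 1.99 ± 0.24 (SE; limma, adjusted p = 2.36e-05). The glucose transporter gene SLC2A1 averaged 27609.6 ± 2209 in GFP light and 17339.9 ± 196 in wt light, a log2 change of 0.67 ± 0.07 (SE; limma, adjusted p = 5.65e-06), and the lactate dehydrogenase gene LDHA rose (0.41, adjusted p = 0.00346). SLC16A1, an importer and exporter of lactate, was the member that fell (-0.29, adjusted p = 0.00676). The groups of SLC16A3 did not overlap, which held for 30.6% of all genes tested. Its highest value was in GFP light c, the library with the fewest reads among the 6 illuminated wild-type ones.

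Some lipid synthesis genes rose by small amounts. Of 25 cholesterol genes 11 were higher, and of 12 fatty acid genes 7, with none lower in either list and median log2 changes of 0.23 and 0.28. For no gene of either list was the light difference called different from the dark difference (limma). The synthase gene HMGCS1 averaged 20800.2 ± 1898 in GFP light and 15694 ± 617 in wt light, and FASN, the fatty acid synthase gene, 79642 ± 8295 in GFP light and 53761 ± 8019 in wt light. In both genes wt light 2 was the lowest library. Without wt light 2 the counts were 8 and 6, without GFP light b 7 and 5, and with the 6 illuminated libraries alone 5 and 3.

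Extracellular matrix genes included further small rises. Of 16 collagen and basement membrane genes 10 were higher and none was lower, with a median log2 change of 0.30, and for 2 the light and dark differences differed; the count was 3 with the 6 illuminated libraries alone. LAMB1, a laminin chain, averaged 7549.8 ± 431 in GFP light and 4903 ± 590.1 in wt light, a log2 change of 0.63 ± 0.08 (SE; limma, adjusted p = 5.11e-05). FN1 and CDH2, fibronectin and N-cadherin, both associated with the mesenchymal transition, rose by log2 changes of 0.91 and 0.66. CDH1, the epithelial cadherin, rose too (0.33, adjusted p = 0.00504), while the claudin genes CLDN3 and CLDN4 fell (-0.63 and -0.65).

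A minority of ribosomal protein genes and of nuclear genes of the respiratory chain were lower in GFP light. None of the 30 ribosomal genes was higher and 12 were lower, and of the 26 respiratory genes 10 were lower, with median log2 changes of -0.26 and -0.25 in light and -0.17 and -0.12 in the dark. In neither list was the light difference called different from the dark difference for any gene (limma). RPS19 read 39888, 45695 and 47997 in GFP light, against 49676, 68615 and 53164 in wt light, and COX7C read 13141, 13738 and 14640.1 in GFP light, against 17854, 22968 and 17942 in wt light. For both, the highest library was wt light 2. Without wt light 2 the counts were 2 ribosomal and 6 respiratory genes, without GFP light b 3 and 6, and with the 6 illuminated libraries alone 0 and 1. The part of these libraries in the falls was not tested further.

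Of 20 mitosis genes 7 were lower (35.0%) and 1, MKI67, was higher (5.0%), against 7.38% and 8.71% over all genes tested. MKI67 read 16439, 17840.5 and 17272 in GFP light, against 15254, 8968 and 13899 in wt light, with the lowest value in wt light 2. Without GFP light b 3 mitosis genes were lower and none was higher. Of 20 genes of replication and the G1/S step 2 were higher. In the interferon list 5 of 18 tested genes were lower and none was higher; the antiviral gene IFIT1 averaged 85.3 ± 14.0 in GFP light and 147 ± 14.5 in wt light, and IFITM2 averaged 4893 ± 448 in GFP light and 7012 ± 787 in wt light. Among stress lists, 3 of 14 heat shock genes (21.4%), 2 of 12 oxidative stress genes (16.7%) and 1 of 7 metallothionein genes (14.3%) were lower and none was higher, against 7.38% lower over all genes tested. The median log2 change of the metallothionein list was -0.34. Of 20 unfolded protein response genes 2 were higher and 3 were lower.

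Some immediate early genes were higher in co-culture. Of 21 tested genes 8 were higher in GFP light and 1, MYC, was lower, while in the dark EGR1 and FOS were the 2 called and were higher in GFP dark. EGR1, a transcription factor induced within minutes by growth factors and stress, read 809, 470.0 and 1559 in GFP light, against 128, 138 and 115 in wt light. In the dark it read 1383, 716 and 384 in GFP dark, against 57.8, 204 and 111 in wt dark. Its log2 changes were 2.72 ± 0.44 (SE; limma, adjusted p = 0.000403) in light and 2.72 ± 0.44 (adjusted p = 0.0314) in the dark. FOS read 1374, 1088 and 1928 in GFP light, against 247, 302 and 300.5 in wt light and 744, 504 and 461 in GFP dark, against 222, 232 and 235 in wt dark, with log2 changes of 2.33 ± 0.18 (SE; limma, adjusted p = 8.67e-08) in light and 1.28 ± 0.18 (adjusted p = 0.0155) in the dark. CDKN1A, the cell cycle inhibitor p21, averaged 1248 ± 43.3 in GFP light and 765 ± 75.1 in wt light, and 2278 ± 136 in GFP dark and 1073 ± 90.7 in wt dark. Its log2 changes were 0.71 ± 0.10 (SE; limma, adjusted p = 6.4e-05) in light and 1.09 ± 0.10 (adjusted p = 1.76e-05) in the dark. NCOA5, a coregulator gene, was the 1 gene lower in GFP dark, with a log2 change of -0.53 ± 0.08 (adjusted p = 0.0224). Of 15 p53 target genes 3, including CDKN1A, were higher in GFP light (20.0%), and 4 were lower (26.7%), against 8.71% and 7.38% over all genes tested.

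**Figure D5:**
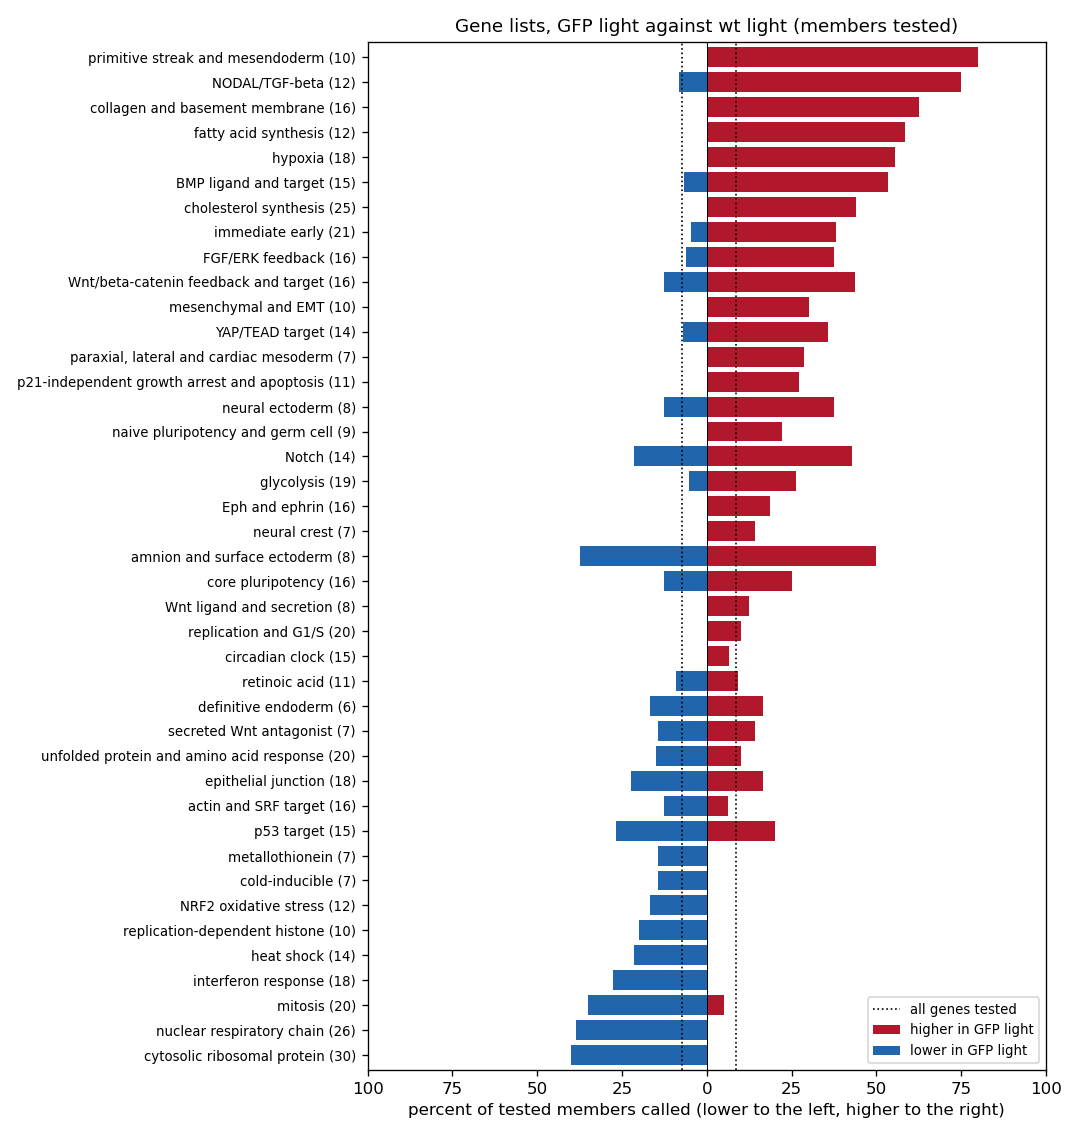
Percent of the tested members of each list called lower (blue, to the left) or higher (red, to the right) in GFP light than in wt light, with the number tested in brackets; the dotted lines mark 7.38% and 8.71% of all genes tested. The streak list has 8 of 10 members higher and none lower, and the ribosomal list 12 of 30 lower and none higher.

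The direction of the changes in light was compared with contrasts that share no library with it. Of the 1648 genes higher in GFP light 1225 (74.3%) had a positive change in the dark, and of the 1396 lower genes 1004 (71.9%) had a negative one, but the sizes were small: medians of 0.09 and -0.09 in the dark, against 0.53 and -0.43 in light. In the dark 3 of the higher genes and 1 of the lower genes were called in the same direction. Among engineered cells, mCherry light against Cry2 light gave the same sign for 53.6% of the higher and 43.6% of the lower genes. The share of each sign over all genes tested was not counted for either contrast, and the median dark change over all genes was 0.0077.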

How the data were processed

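Messenger RNA had been sequenced in 24 libraries; the 12 of wild-type cells were fitted here. Per the submitters' processing notes, the authors ran the tools FastQC, cutadapt, Bowtie2, STAR, HTSeq and DESeq (no versions stated). The notes name GRCh38 and the header of the sample table names hg19; printed gene coordinates are GENCODE 29 (GRCh38), matched on Ensembl identifiers. The authors' deposited gene table gives a normalised signal for 28301 features, of which 4 are construct features. From the authors' deposited sample table, used for monocultures, come total read counts, percent GC, percent aligned and the RNA integrity score; among wt light and wt dark libraries wt dark 1 stood out with 33.73% GC. The signal is reads divided by 1 factor per library, since 100.0% of values became whole within 0.01 after multiplication, and reads were recovered in this way.

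The test was limma-trend (limma 3.58.1, R 4.3.3) on log2(value + 1), which understates changes of weakly expressed genes. Genes needed 10 or more in 3 or more of the 12 libraries, and calls used a Benjamini-Hochberg adjusted p under 0.05. On recovered reads edgeR 4.0.16 called 1649 genes higher and 1424 lower in light, and DESeq2 1.42.0 called 1932 and 1759. Other alternatives changed the pseudocount (0.5 or 10), the filter, the scaling or the libraries; leaving out GFP light b with wt dark 1, thinning to 30681716 reads, and subtracting a mean mCherry share were chosen after seeing the data. The code was tested on simulated data. Members and lists were chosen with earlier results of these data known, so lists carry counts and medians only. The genes named were the 12 largest rises and 12 largest falls among called genes (mean of 50 or more in the higher group, no overlap), the 8 largest differences from the dark each way, up to 4 called members of a list each way and 20 fixed genes; any other gene is a later choice and said to be so, or is given only by its list's counts. Some genes that these rules name are not reported here. No library pair within a group differed as little as counting noise (chi-square per degree of freedom of 4.20 or more), so none was a duplicate. Co-culture columns were matched to groups only.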

Additional observations from a re-analysis of the deposited data

Results flagged for a closer look

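For the genes named here the difference between co-culture and monoculture under light was among those that differed most from that in the dark, by the test of the difference itself in the 12 wild-type libraries (limma, adjusted p under 0.05). LINC02593 had 2 reads in wt light and IL17C had 4 in GFP light, so their values depend on the pseudocount and are no bounds. The value is the log2 change of GFP light over wt light minus that of GFP dark over wt dark. It was positive for LINC02593 (5.55), EOMES (5.00), TBXT (4.92), SEZ6L (4.68), SAMD11 (4.54), PCAT14 (3.21) and CDH6 (3.16). It was negative for IL17C (-5.28), NPTX1 (-4.78), CUZD1 (-3.75), BNC1 (-3.68), ATP10B (-3.55), BRINP2 (-3.44), GADD45G (-3.02) and ISLR2 (-2.97). GADD45G, a stress-responsive gene that is not among the 12 largest falls, read 33.1, 34.9 and 36.4 in GFP light, against 165, 212 and 179 in wt light, and 361, 400.4 and 385 in GFP dark, against 219, 278 and 239.7 in wt dark.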

How the results depend on the processing

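The 1648 higher and 1396 lower genes in GFP light became 656 and 432 with the 6 illuminated wild-type libraries alone, 24 and 20 when a change beyond 2-fold was tested, and 827 and 605 without GFP light b and wt dark 1, a choice made after the data were seen. The first of these has fewer libraries to estimate the spread from; for the last the cause was not tested. Leaving out 1 library gave 1039 to 1943 higher and 784 to 1542 lower genes, with the lowest counts without GFP light b. For the difference between light and dark, 252 positive and 226 negative genes became 413 and 367 with DESeq2, 10 and 12 when tested beyond 2-fold, and 109 and 104 without GFP light b and wt dark 1; leaving out 1 library gave 153 to 321 positive and 138 to 267 negative genes, and this difference could not be fitted with the 6 libraries alone. Under the other pseudocounts, filters, TMM, edgeR, thinning, the 3 subtractions and the fit of all 24 libraries the counts stayed within 1.5 times. APLNR reversed, to -1.42 (adjusted p = 0.338), when the mCherry light level scaled by each library's puromycin share was subtracted, to -3.05 with the mean puromycin share and to -4.61 with the mean excess share of the Cry2 fusion, the last 2 added after the data were seen. Under the fusion share MIXL1 (-2.84) and LEF1 (-3.14) reversed as well, and so did the differences between light and dark of APLNR (-4.46), MIXL1 (-2.84) and LEF1 (-3.22); with either puromycin share MIXL1 kept its direction and call. Over the named genes and all alternatives, the change in light kept its direction and call 4205 times, lost its call 438 times, gained one 1 time and reversed 5 times. No paired analysis was possible because the co-culture columns carry no replicate number. Depth limits genes of few reads such as LINC02593, TFAP2A and HHEX.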
